A study of Mus musculus with 6 samples.

Results

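The genes described here encode the receptors for glutamate, GABA and glycine, the fast transmitters of the retina and the metabotropic receptors that answer to glutamate and GABA. Members were the rows of the deposited gene table whose symbol belongs to the Gria, Grik, Grin, Grid, Grm, Gabr, Gabbr or Glra and Glrb families, which gave 42 of the 13072 genes listed. They comprised 4 AMPA, 5 kainate, 4 NMDA, 2 delta and 8 metabotropic glutamate receptor genes, 12 GABA-A subunit genes, 2 rho subunit genes, 2 GABA-B receptor genes and 3 glycine receptor genes. Grin2a and Glra1 were not analysed here at gene level. All 42 passed the filter of a mean of at least 0.5 FPKM (fragments per kilobase of exon, scaled to the mapped fragments of a library), so none of these was lost to it. The filter says nothing of family genes that the deposited gene table does not list.

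The libraries came from retinas of C57BL/6 mice at postnatal day 7, with 3 wild-type (WT) libraries and 3 from mice deficient in connective tissue growth factor (CTGF_KO), a secreted matrix protein encoded by Ctgf. The deficiency was made with an inducible Cre/lox system. The labels do not name the Cre driver, the inducing agent, its timing or the part of Ctgf removed, and they do not say whether WT mice carried Cre or received the agent. Nothing says that the libraries came from separate mice, so p-values measure the spread between libraries, which may be technical. Ctgf stood at 0.932, 0.777 and 1.51 FPKM in WT and at 0.587, 1.0 and 0.526 FPKM in CTGF_KO, so the groups overlapped (log2 difference −0.28, SE 0.17, limma adjusted p = 0.571), and the values do not separate the libraries by label.

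Ionotropic receptors are ligand-gated channels. AMPA receptors (Gria) carry fast excitation, kainate receptors (Grik) serve among others the OFF bipolar cells, and NMDA receptors (Grin) are calcium-permeable and need both glutamate and a co-agonist. GABA-A receptors (Gabr) and glycine receptors (Glra with Glrb) pass chloride and give fast inhibition, which in immature neurons can be depolarising. The metabotropic receptors (Grm, Gabbr) act through G proteins, and Grm6 is the receptor with which ON bipolar cells read photoreceptor glutamate. At the age sampled, amacrine and ganglion cells already have synapses in the inner retina, while photoreceptor to bipolar synapses are still forming.

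AMPA subunit mRNAs carry 1 of 2 alternative exons, flip or flop, that code for the same stretch of the ligand-binding region and set how fast the channel desensitises. Both exons have the same length. They are shown for Gria2 and Gria4, since the transcripts of these 2 genes that had low p-values held the flop exon or ended before the pair. Sequences are from the GENCODE M21 transcripts on GRCm38, read 5′ to 3′ on the minus strand, and capitals mark the bases at which flip and flop differ, 36 in Gria2 and 31 in Gria4. The Gria2 flip exon lies at chr3:80690404-80690518 and the flop exon at chr3:80691320-80691434, and the Gria4 flip exon lies at chr9:4427030-4427144 and the flop exon at chr9:4432773-4432887.
Gria2 flip: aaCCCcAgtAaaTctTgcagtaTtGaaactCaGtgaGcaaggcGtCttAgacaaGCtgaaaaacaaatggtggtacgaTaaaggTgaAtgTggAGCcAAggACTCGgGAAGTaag
Gria2 flop: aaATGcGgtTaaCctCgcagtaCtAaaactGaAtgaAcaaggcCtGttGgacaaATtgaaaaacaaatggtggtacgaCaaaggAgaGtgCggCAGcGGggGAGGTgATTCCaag
Gria4 flip: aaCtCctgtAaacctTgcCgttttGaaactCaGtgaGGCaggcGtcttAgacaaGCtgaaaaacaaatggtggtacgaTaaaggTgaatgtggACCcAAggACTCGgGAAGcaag
Gria4 flop: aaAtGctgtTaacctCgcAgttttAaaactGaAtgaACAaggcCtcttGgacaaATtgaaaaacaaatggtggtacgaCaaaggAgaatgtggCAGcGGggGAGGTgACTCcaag

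A cassette exon adds the C1 segment to the intracellular tail of the NMDA subunit encoded by Grin1. It is shown because the listed transcripts of Grin1 differ by it. Capitals mark the cassette, with 20 bases of the neighbouring exons on either side in lower case. The exon has 111 bases and lies at chr2:25294438-25294548 on the minus strand of GRCm38.
Grin1 C1 exon: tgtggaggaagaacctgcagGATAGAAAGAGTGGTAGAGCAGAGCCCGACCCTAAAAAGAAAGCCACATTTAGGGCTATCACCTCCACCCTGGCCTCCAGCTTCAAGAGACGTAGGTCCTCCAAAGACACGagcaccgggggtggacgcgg

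Receptor genes were mostly lower in CTGF_KO: 37 of 42 lay below WT on the log2(FPKM + 1) scale, a scale that understates the change of low genes, and their median was −0.17. Over all genes together, 55.1% of the 12915 tested were lower, and the median was −0.02. The 5 with higher values were Grik5, Grm2, Grm4, Gabrd and Gabrr3. None of the 42 passed an adjusted p of 0.05 in limma (the smallest was 0.533), a threshold that 6 genes passed over the whole table (0.0465%). At an unadjusted p under 0.05, 10 members were lower and 0 higher, against 5.49% of all genes lower and 3.83% higher. Among them were Gria2, Gria3, Gria4, Grik2, Grin2b, Gabra2, Gabrb1, Gabrb2 and Glrb. All 3 CTGF_KO libraries lay below all 3 WT libraries for 16 members (10.9% of all genes), and no member showed the reverse (7.53% of all genes). With the FPKM totals of the libraries set equal, 87.5% of all genes with an unadjusted p under 0.05 were lower, with a median-of-ratios scaling 45.1%, and as deposited 58.9%, while the members with such a p were lower under all 3 scalings.

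**Figure D1:**
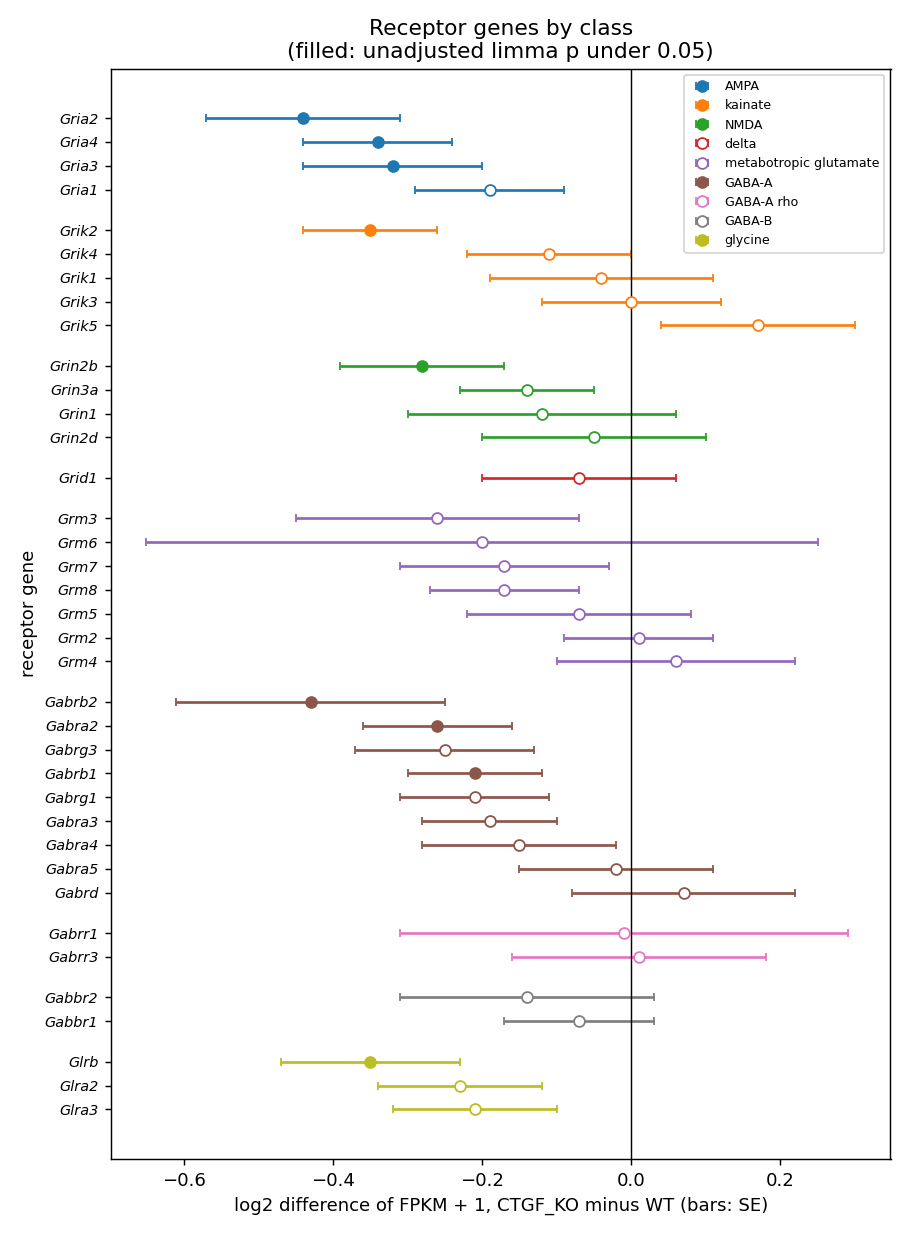
Log2 difference of FPKM + 1 between CTGF_KO and WT (x axis; points, limma estimates; bars, SE; n = 3 libraries per group) for 37 of the receptor genes (y axis), coloured by class, with filled points where the unadjusted p was under 0.05. All 9 filled points lie left of 0, between −0.44 and −0.21.

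Receptor genes are long, and the length of a gene moved with the difference between groups. Their median gene span was 204 kb, against 24.7 kb over all genes tested. Among all genes, the median log2 difference was 0.07 in the lowest of 5 equal bins of span, then 0.02, −0.02, −0.05 and −0.10 in the highest bin. In that highest bin 75.3% of genes were lower and 12.2% were lower at an unadjusted p under 0.05. For 600 of its 2578 genes, all CTGF_KO libraries lay below all WT libraries. That bin held 31 of the 42 members, of which 30 were lower, 9 at an unadjusted p under 0.05, with a median of −0.19. Of these 31, 14 were lower without overlap. The 11 members with shorter spans had a median of −0.05, and 7 of them were lower. With the trend on gene span removed from each library, 28 members were lower and the median was −0.06. Gria2, Gria4 and Glrb were the 3 left with an unadjusted p under 0.05. In that fit 456 of all 12915 genes were lower at such a p and 525 higher. With the trend on exon length removed, 31 members were lower and 6 had such a p. Of all 12915 genes, 473 were then lower at such a p and 521 higher. Both of these fits were chosen after the data were seen, and what gene length contributes to each member's value was not tested beyond them.

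**Figure D2:**
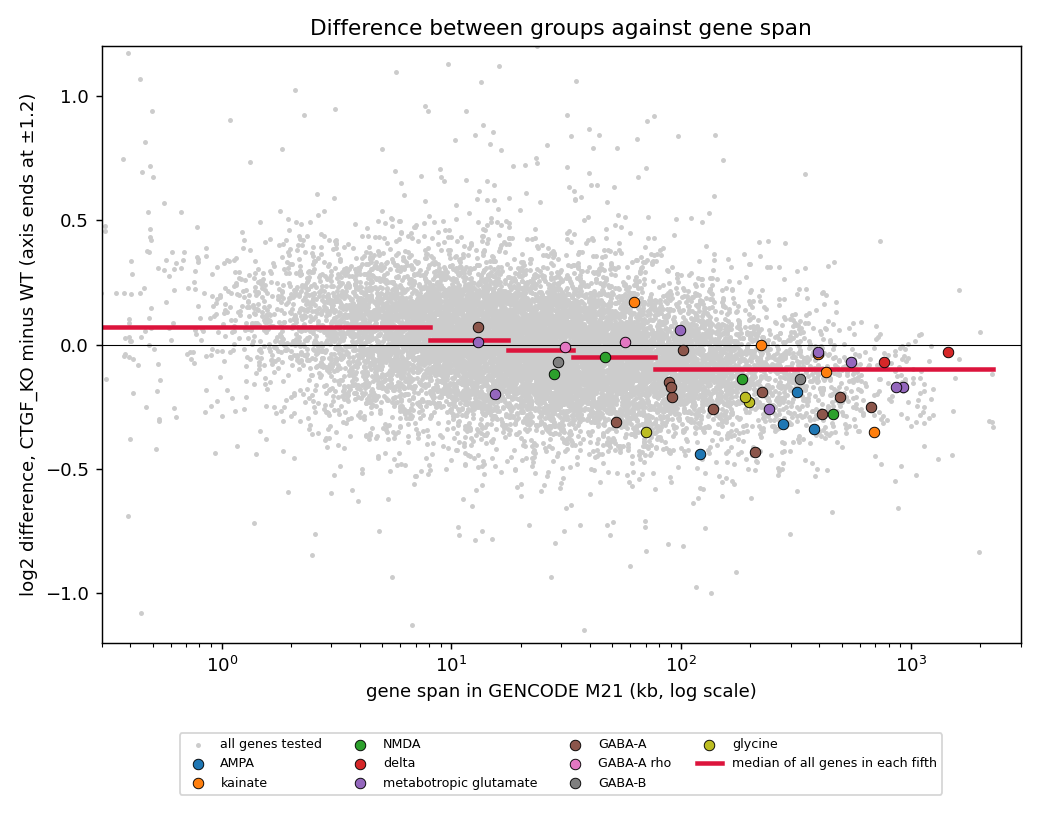
Log2 difference between CTGF_KO and WT (y axis) against gene span in kb (x axis, log scale) for all genes tested (grey) and the 42 receptor genes (coloured by class), with red lines for the median of all genes in each of 5 bins of span. The medians step down from 0.07 to −0.10, and 31 of the receptor genes lie in the bin with the longest spans.

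AMPA receptor genes had the lowest values relative to WT of the glutamate receptor classes, and all 4 had CTGF_KO libraries wholly below WT. So did 10.9% of all genes tested, and 600 of the 2578 genes in the highest bin of gene span. Together the AMPA genes reached 42.0, 45.3 and 46.5 FPKM in the WT libraries and 35.2, 31.4 and 38.5 FPKM in those of CTGF_KO. The groups did not overlap, and the ratio of means was 0.786. Gria4, the most abundant AMPA gene, took 46.1% ± 0.263 of the class sum in WT and 45.9% ± 1.17 in CTGF_KO (SD, n = 3), which differed by less than the spread. The share of Gria1 was 23.5% ± 0.874 in WT and 26.1% ± 3.24 in CTGF_KO, and that of Gria2 21.4% ± 0.483 and 19.4% ± 2.43, in each case with CTGF_KO replicate 2 farthest from WT.

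Gria2 encodes the subunit that makes AMPA channels impermeable to calcium once its transcript is edited. It stood at 9.19, 9.65 and 9.73 FPKM in WT and at 7.79, 5.46 and 7.23 FPKM in CTGF_KO. The WT libraries lay close together and above every CTGF_KO library, of which replicate 2 was the lowest (log2 difference −0.44, SE 0.13, unadjusted p = 0.00916, adjusted p = 0.533). Gria4, whose product forms rapidly gating channels, stood at 19.4, 20.9 and 21.3 FPKM in WT and at 16.0, 14.1 and 18.1 FPKM in CTGF_KO. All CTGF_KO libraries were below all WT libraries, again with replicate 2 lowest (−0.34, SE 0.10, unadjusted p = 0.0125).

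Gria3, on the X chromosome, stood at 3.79, 4.20 and 4.08 FPKM in WT and at 3.13, 2.47 and 3.52 FPKM in CTGF_KO (log2 difference −0.32, SE 0.12, unadjusted p = 0.0286). Its groups did not overlap. Gria1 was nearest to WT in this class, at 10.5 ± 0.904 FPKM in WT and 9.07 ± 0.664 FPKM in CTGF_KO (SD, n = 3), with an unadjusted p of 0.0878. The log2 ratio of Gria2 to Gria4 was −1.11 ± 0.03 in WT and −1.25 ± 0.18 in CTGF_KO, and the groups overlapped.

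Of the 5 kainate receptor genes 4 had lower values and 1 higher, with a median of −0.04, while 55.1% of all genes tested were lower. The summed level of the kainate genes was 40.7 ± 2.14 FPKM in WT and 41.6 ± 5.34 FPKM in CTGF_KO (SD, n = 3). Grik2, which encodes the GluK2 subunit, had the smallest p of all 42 members. It stood at 5.09, 5.25 and 5.18 FPKM in WT and at 3.75, 3.69 and 4.15 FPKM in CTGF_KO. Both groups were tight and did not overlap at gene level (log2 difference −0.35, SE 0.09, unadjusted p = 0.00435, adjusted p = 0.533). Its most abundant transcript by mean, Grik2-207, overlapped between groups (log2 difference −0.18, limma unadjusted p = 0.476). That transcript was at 4.9, 4.88 and 2.87 FPKM in WT and at 3.83, 4.06 and 2.78 FPKM in CTGF_KO. The listed Grik2 transcripts summed to 1.0 to 1.77 times the gene's value between libraries. Under the alternative fits the Grik2 difference lay between −0.41 and −0.18. With the trend on gene span removed, its unadjusted limma p was no longer under 0.05.

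Grik5, the most abundant kainate gene, encodes GluK5, which forms channels only with GluK1 to GluK3. It stood at 16.8, 18.6 and 18.7 FPKM in WT and at 18.3, 25.3 and 18.4 FPKM in CTGF_KO. Replicate 2 of CTGF_KO alone stood above the rest (log2 difference 0.17, adjusted p = 0.627). Without that library the difference was 0.02. Grik3 had means of 10.7 FPKM in both groups. Grik1, which OFF bipolar cells use, was at 5.48 ± 1.38 FPKM in WT and 5.20 ± 0.351 FPKM in CTGF_KO, and Grik4 at 1.33 ± 0.228 and 1.15 ± 0.152 FPKM.

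All 4 NMDA receptor genes had lower values in CTGF_KO, and Grin2b alone had an unadjusted p under 0.05. Of all genes tested, 55.1% were lower, 5.49% were lower at such a p and 10.9% were lower without overlap. In the highest bin of gene span, 75.3% were lower and 12.2% were lower at such a p. Grin2b encodes the GluN2B subunit, typical of immature synapses, and stood at 2.61, 3.40 and 3.34 FPKM in WT and at 2.12, 2.48 and 2.56 FPKM in CTGF_KO. The groups did not overlap, by a margin between 2.61 and 2.56 FPKM (log2 difference −0.28, SE 0.11, unadjusted p = 0.0442). Grin1, the obligatory subunit and the most abundant of the class, stood at 3.0, 2.98 and 3.80 FPKM in WT and at 2.36, 4.13 and 2.49 FPKM in CTGF_KO. Replicate 2 of CTGF_KO was the highest library of all, and the other 2 were the lowest, so that the log2 difference of −0.12 was −0.31 without that library, −0.00464 without CTGF_KO replicate 1 and −0.03 without CTGF_KO replicate 3 or WT replicate 3. Grin2d (1.41 ± 0.246 against 1.34 ± 0.404 FPKM) differed by less than its spread. Grin3a, which encodes a glycine-binding subunit, was at 0.764 ± 0.0858 FPKM in WT and 0.597 ± 0.0711 FPKM in CTGF_KO without overlap (unadjusted p = 0.164).

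The delta receptor genes encode synaptic organisers that bind cerebellins. Grid1 stood at 1.92, 2.49 and 2.51 FPKM in WT and at 1.7, 2.2 and 2.55 FPKM in CTGF_KO, with wide overlap (log2 difference −0.07, adjusted p = 0.838). It was 0.09 with the trend on gene span removed and 0.03 without CTGF_KO replicate 1.

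No metabotropic glutamate receptor gene had an unadjusted p under 0.05, and 6 of 8 had lower values (75.0%). That share was 55.1% over all genes tested and 75.3% in the highest bin of gene span, and 10.9% of all genes were lower without overlap. Grm7, a presynaptic receptor and the most abundant of the class, stood at 4.62, 6.07 and 6.54 FPKM in WT and at 4.58, 5.73 and 4.60 FPKM in CTGF_KO (log2 difference −0.17, SE 0.14, adjusted p = 0.643). Its groups overlapped widely, and the difference lay between −0.30 and −0.08 with a library left out. Grm8, another presynaptic receptor, had the smallest p of the class (0.13, limma unadjusted), with 1.05, 1.31 and 1.38 FPKM in WT and 0.970, 0.988 and 1.04 FPKM in CTGF_KO. Its groups did not overlap, by a margin between 1.05 and 1.04 FPKM.

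Grm6, the ON bipolar cell receptor, stood at 1.41, 1.15 and 6.39 FPKM in WT and at 2.48, 1.34 and 2.07 FPKM in CTGF_KO. WT replicate 3 alone was high, and the other 5 libraries lay between 1.15 and 2.48 FPKM (adjusted p = 0.868). The same library was highest for Gabrr1, at 2.94 FPKM against 1.01 and 0.777 FPKM in the other WT libraries, and for Trpm1, the cation channel gated by the Grm6 cascade, at 1.22 FPKM against 0.367 and 0.148 FPKM. Among markers of bipolar cells, Vsx1 was at 6.29 FPKM there against 2.72 and 2.17 FPKM, while Lhx4 was at 20.1 FPKM against 18.8 and 19.2 FPKM. The summed bipolar list was 81.0 FPKM in WT replicate 3 and between 63.7 and 67.2 FPKM in the other 5 libraries, and its part in these values was not tested.

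Grm2, Grm3, Grm4 and Grm5 differed by less than the spread of at least 1 group. Grm3 was at 3.46 ± 0.936 FPKM in WT and 2.71 ± 0.667 FPKM in CTGF_KO, and Grm5, whose product couples to calcium release, was at 0.646 ± 0.296 and 0.547 ± 0.0786 FPKM. Grm2 (2.71 ± 0.140 against 2.74 ± 0.269 FPKM) and Grm4 (1.91 ± 0.147 against 2.07 ± 0.663 FPKM) had slightly higher means in CTGF_KO.

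GABA-A receptor genes formed the most abundant class. Summed, they reached 59.3, 63.6 and 63.8 FPKM in the WT libraries and 51.0, 48.1 and 55.6 FPKM in those of CTGF_KO. The groups did not overlap, and the ratio of means was 0.829. Of the 12 genes 11 had lower values, 4 of them with an unadjusted p under 0.05, and 6 had groups that did not overlap. Over all genes tested, 55.1% were lower, 5.49% were lower at such a p, and 10.9% were lower without overlap. In the highest bin of gene span, 75.3% were lower and 12.2% were lower at such a p. There, 600 of 2578 genes were lower without overlap.

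**Figure D3:**
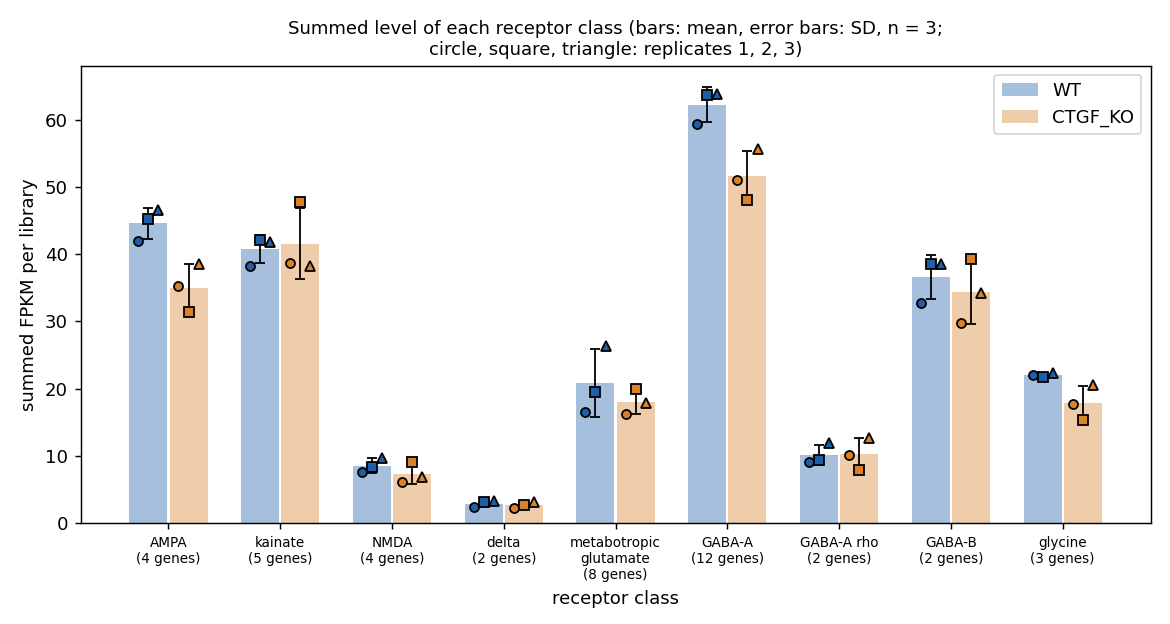
Summed FPKM of each receptor class (y axis) per library in WT and CTGF_KO (bars, mean; error bars, SD; points, the 3 libraries of each group; x axis, class). The groups are apart for the AMPA, GABA-A and glycine receptor genes and overlap for the other 6 classes.

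GABA-A receptors need beta subunits for assembly. Gabrb1 stood at 0.901, 0.904 and 0.911 FPKM in WT and at 0.595, 0.665 and 0.681 FPKM in CTGF_KO. Its WT values were nearly equal and all above CTGF_KO (unadjusted p = 0.0414). Its log2 difference was −0.21 with a pseudocount of 1 and −0.43 with a pseudocount of 0.1, since a larger pseudocount shrinks the difference of genes at such low levels. Gabrb2 stood at 3.59, 3.47 and 4.56 FPKM in WT and at 2.67, 1.86 and 3.47 FPKM in CTGF_KO (−0.43, SE 0.18, unadjusted p = 0.044). WT replicate 2 and CTGF_KO replicate 3 were level, so the groups met. Without CTGF_KO replicate 2 the difference was −0.26 (unadjusted p = 0.116).

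The alpha subunits shape where and how the receptors act. Gabra3, the most abundant of them, was at 10 ± 0.176 FPKM in WT and 8.68 ± 0.733 FPKM in CTGF_KO without overlap (unadjusted p = 0.0605). Gabra2 stood at 4.01, 4.21 and 3.60 FPKM in WT and at 3.48, 3.04 and 2.84 FPKM in CTGF_KO. Its groups were apart by the margin between 3.60 and 3.48 FPKM (log2 difference −0.26, SE 0.10, unadjusted p = 0.0342). The 1 listed transcript of Gabra2, Gabra2-203, went the other way (log2 difference 0.65, limma unadjusted p = 0.101). It was at 1.37, 1.2 and 1.1 FPKM in WT and at 1.12, 3.68 and 3.28 FPKM in CTGF_KO. That was 0.285 to 1.21 times the gene's value between libraries, so transcript and gene values do not describe the same amount. Gabra4 and Gabra5 were at or below 1.70 FPKM in every library, with overlap.

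The gamma subunits link receptors to the synapse. Gabrg3 was at 1.73 ± 0.258 FPKM in WT and 1.30 ± 0.264 FPKM in CTGF_KO (SD, n = 3). Gabrg1 stood at 0.967, 0.948 and 0.954 FPKM in WT and at 0.794, 0.510 and 0.778 FPKM in CTGF_KO, without overlap (unadjusted p = 0.076). Gabrd, the extrasynaptic delta subunit, was the 1 gene of the class with a higher mean, at 2.06 ± 0.165 against 2.25 ± 0.656 FPKM.

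Many GABA-A genes sit in clusters, and some neighbours overlap. Gabrg1, Gabra2, Gabra4 and Gabrb1 lie together on chromosome 5. Gabra4 and Gabrb1 overlap by 196 bases at their starts on opposite strands. The library kit keeps strand information, but whether the FPKM estimates used it is not given in the sources used here, so the values of overlapping genes are less certain. On chromosome 5 the log2 differences were −0.21 for Gabrg1, −0.26 for Gabra2, −0.15 for Gabra4 and −0.21 for Gabrb1. Gria2 and Glrb are also neighbours, on the same strand of chromosome 3 with 40.8 kb between them.

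The rho subunits form the slow GABA channels of bipolar cell terminals. Gabrr3 stood at 8.15, 8.58 and 8.98 FPKM in WT and at 9.25, 6.29 and 11 FPKM in CTGF_KO. CTGF_KO held both the highest and the lowest library (log2 difference 0.01, SE 0.17, adjusted p = 0.982), and the sign changed when WT replicate 1 or CTGF_KO replicate 1 or 3 was left out or the FPKM totals were set equal. The summed rho level had a ratio of 1.01.

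Gabbr1, the ligand-binding subunit of the GABA-B receptor, was the most abundant of the 42 genes, at 23.1, 26.6 and 26.6 FPKM in WT and 22.1, 26.3 and 24.3 FPKM in CTGF_KO (log2 difference −0.07, adjusted p = 0.785). Its partner Gabbr2 stood at 9.72, 11.8 and 11.9 FPKM in WT and at 7.70, 13.0 and 9.88 FPKM in CTGF_KO (−0.14, adjusted p = 0.752). CTGF_KO libraries lay on both sides of WT for Gabbr2, and without CTGF_KO replicate 1 the difference was 0.03.

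Glycine receptor genes had lower values in CTGF_KO in all 3 cases. Of all genes tested, 55.1% were lower and 10.9% were lower without overlap, and in the highest bin of gene span 75.3% were lower. The summed levels of the glycine receptor genes were 22.0, 21.7 and 22.3 FPKM in WT and 17.8, 15.3 and 20.5 FPKM in CTGF_KO. The WT sums were close together and above all CTGF_KO sums (ratio of means 0.811), and the log2 difference of the sums was −0.31, or −0.20 without CTGF_KO replicate 2. Glrb, the beta subunit that anchors the receptor to gephyrin, stood at 6.96, 6.45 and 7.98 FPKM in WT and at 5.51, 4.68 and 5.96 FPKM in CTGF_KO, without overlap (log2 difference −0.35, SE 0.12, unadjusted p = 0.018). Glra2, the alpha subunit of immature neurons and the most abundant of the class, stood at 14.3, 14.4 and 13.3 FPKM in WT and at 11.7, 10.1 and 13.8 FPKM in CTGF_KO. CTGF_KO replicate 3 lay within the WT range (−0.23, SE 0.11, unadjusted p = 0.08), and without CTGF_KO replicate 2 the difference was −0.13. Glra3 was at 0.867 ± 0.107 and 0.619 ± 0.141 FPKM without overlap (unadjusted p = 0.0896). The planned ratios of Grin2a to Grin2b and of Glra1 to Glra2 could not be computed, since Grin2a and Glra1 were not analysed at gene level.

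**Figure D4:**
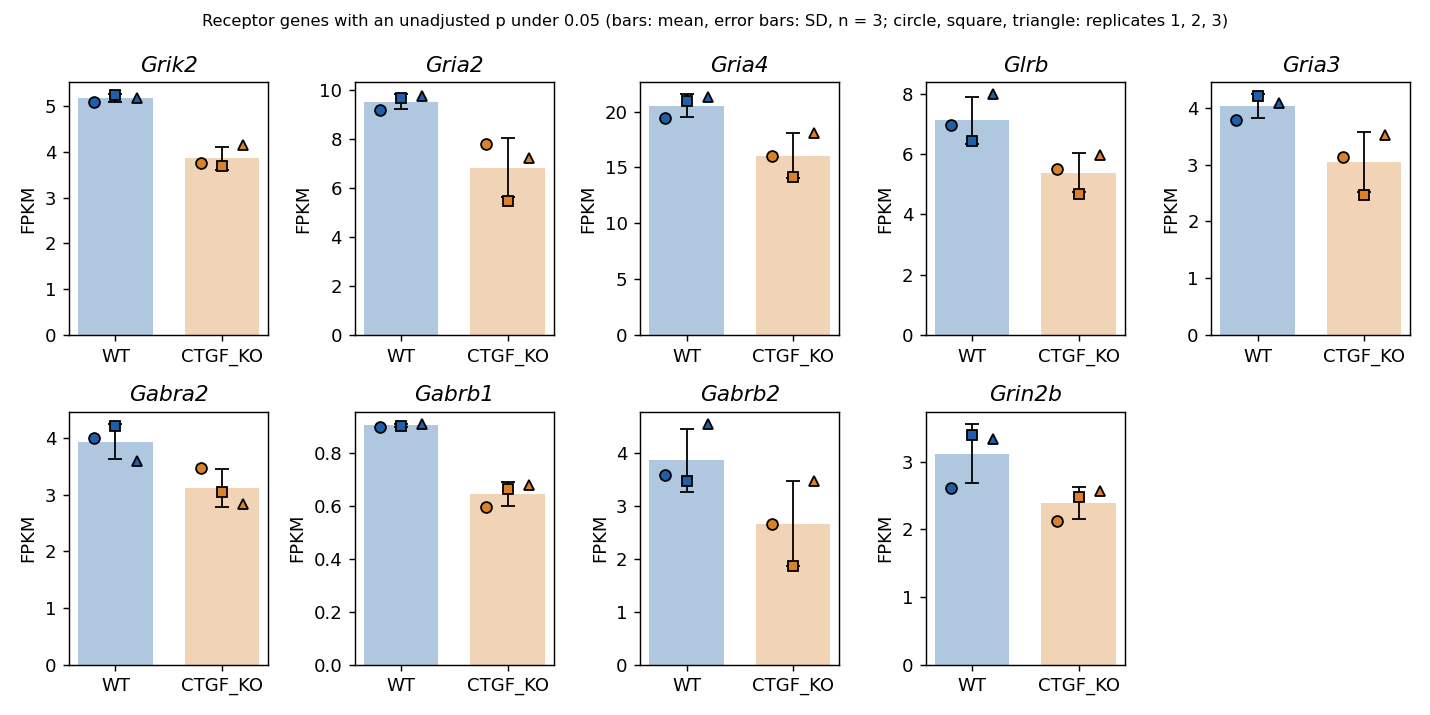
FPKM (y axis) of 9 receptor genes with an unadjusted p under 0.05 in WT and CTGF_KO (bars, mean; error bars, SD; points, the 3 libraries of each group). The groups are apart in 8 panels and meet in that of Gabrb2, where WT replicate 2 and CTGF_KO replicate 3 are both at 3.47 FPKM.

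In whole retina, fewer cells of a type and less RNA per cell cannot be told apart. Summed marker lists of several cell types differed between groups, and these sums have no test. Of all genes tested, 55.1% were lower, 10.9% were lower without overlap and 7.53% were higher without overlap. The summed horizontal cell list (6 of 6 genes listed, all lower) was 35.4 to 40.9 FPKM in WT and 27.5 to 31.2 FPKM in CTGF_KO. The dividing progenitor list (8 of 8 lower) was 54.9 to 84.5 FPKM in WT and 49.8 to 51.4 FPKM in CTGF_KO, and the rod list (7 of 8 higher) 650 to 879 against 874 to 957 FPKM. The cone list (6 of 7 listed, 4 higher) was 207 to 240 FPKM in WT and 267 to 311 FPKM in CTGF_KO, and the astrocyte list (4 of 4 listed, 2 lower) 9.29 to 9.69 against 7.38 to 9.16 FPKM. The amacrine list (9 of 10 listed, 7 lower) was 227 to 254 FPKM in WT and 201 to 230 FPKM in CTGF_KO, and the ganglion cell list (8 of 9 lower) 239 to 332 against 209 to 336 FPKM. Lens markers were at 292, 1.35 and 2.21 FPKM in WT and at 258, 134 and 2250 FPKM in CTGF_KO, with Mip, Crygs and Lim2 listed at 0 in 1 or more of WT replicates 2 and 3. The horizontal, dividing progenitor, cone and astrocyte sums were apart between groups. Those of the other lists, bipolar cell, Mueller glia, microglia, vessel, pigment epithelium, erythroid and oligodendrocyte lists included, overlapped. Gene by gene, 3 of 6 horizontal, 3 of 8 dividing progenitor and 1 of 4 astrocyte genes were lower without overlap. Of the 6 cone genes listed, 2 were higher without overlap. Prox1 had means of 21.2 FPKM in WT and 16.7 FPKM in CTGF_KO, a large part of the horizontal sum. The smallest limma adjusted p in each of these 4 lists was 0.533. The part of these cell types in the receptor values was not tested.

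Single libraries also weighed on the counts. CTGF_KO replicate 1 was the lowest of the 6 libraries for 19 members and replicate 2 for 14, while replicate 2 was also the highest for 7, and WT replicate 3 was the highest for 22. CTGF_KO replicate 2 held 1875 transcripts at an FPKM of 0, and the other libraries 716 to 861. The number of members lower at an unadjusted p under 0.05 was 6 without CTGF_KO replicate 2 and 5 without WT replicate 2 or WT replicate 3. Of all 12915 genes tested, 709 were lower at such a p with every library kept. That number was 535 without CTGF_KO replicate 2, 348 without WT replicate 2 and 660 without WT replicate 3. The median log2 difference of the members was −0.16 without CTGF_KO replicate 2 and −0.10 without WT replicate 3, and 38 and 30 members were lower. Of the genes named above with an unadjusted p under 0.05, Gria2, Gria4 and Grik2 kept such a p with each library left out in turn, while Gria3, Grin2b, Gabra2, Gabrb1, Gabrb2 and Glrb exceeded it in at least 1 case. Grik2 did not keep it with the trend on gene span removed. FPKM totals were 208436 to 216436 in WT and 217674 to 230474 in CTGF_KO. Sequencing depth is unknown, as no counts are given.

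At transcript level, 76 transcripts of these families were listed, of 43 genes because Grin2a-206 is listed as a transcript, and 68 reached the filter. None passed an adjusted p of 0.05 (0.0239% of 25082 transcripts did), and the smallest was 0.819. At an unadjusted p under 0.05, 8 were lower and 0 higher, against 2.53% of all transcripts lower and 2.52% higher. Among them were Glrb-201, Grik1-203, Gria4-203, Grm7-205, Gria2-201, Grm7-203 and Gria4-204. The authors' deposited table of lower transcripts holds 263 entries, 3 of them members, among them Glrb-201 with a log2 fold change of −0.71 and Grik1-203 with −0.68. The authors' deposited tables of differential genes (16 higher, 14 lower) and of higher transcripts (194) hold 0 members.

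Glrb-201, the 1 listed transcript of Glrb, stood at 10.5, 9.67 and 9.06 FPKM in WT and at 4.58, 6.97 and 5.30 FPKM in CTGF_KO, without overlap (log2 difference −0.71, SE 0.17, unadjusted p = 0.00537). Its value was 1.5, 1.5 and 1.14 times that of the gene in WT and 0.833, 1.49 and 0.889 times in CTGF_KO, so transcript and gene values do not describe the same amount. Grik1-203, a model that covers an inner stretch of the gene, stood at 1.03, 1.17 and 1.19 FPKM in WT and at 0.462, 0.103 and 0.444 FPKM in CTGF_KO, without overlap (unadjusted p = 0.00919). Grm7-203 and Grm7-205 are models of only 418 and 386 bases in the downstream stretch of the gene. Grm7-203 stood at 1.25, 1.43 and 1.66 FPKM in WT and at 0.958, 0.31 and 0.71 FPKM in CTGF_KO (unadjusted p = 0.0347), and Grm7-205 at 1.26, 0.924 and 0.862 FPKM in WT and at 0.61, 0.371 and 0.341 FPKM in CTGF_KO (unadjusted p = 0.0311). Both pairs of groups were apart, while the main form Grm7-202 had a log2 difference of −0.11. With each library left out in turn, Glrb-201 and Grik1-203 kept an unadjusted p under 0.05, and the other 5 transcripts named with such a p exceeded it in at least 1 case.

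Among the 10 member transcripts with the smallest p, Gabrb2-201 stood at 5.54, 5.37 and 7.02 FPKM in WT and at 4.01, 2.81 and 5.31 FPKM in CTGF_KO (log2 difference −0.49, unadjusted p = 0.074). Its groups did not overlap, and without CTGF_KO replicate 2 the difference was −0.30. Since no member transcript was higher at an unadjusted p under 0.05, no gene could have transcripts of opposite sign among those.

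The AMPA transcripts split by the exons printed above. In Gria2 the flop form (Gria2-201) was at 8.46, 8.93 and 7.95 FPKM in WT and 7.14, 5.07 and 6.17 FPKM in CTGF_KO, without overlap (log2 difference −0.42, SE 0.15, unadjusted p = 0.0319). The flip form (Gria2-202) was at 0.946, 0.817 and 0.945 FPKM in WT and 0.877, 1.27 and 1.29 FPKM in CTGF_KO, where replicates 2 and 3 exceeded WT and replicate 1 did not. The flop share of the 2 forms was 90.3% ± 1.17 in WT and 83.9% ± 4.65 in CTGF_KO (SD, n = 3), and all 3 CTGF_KO shares, 89.1%, 80.0% and 82.8%, lay below the lowest WT share of 89.4%.

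In Gria4 the flop forms (Gria4-201 and Gria4-204) summed to 16.0, 15.1 and 17.7 FPKM in WT and 11.6, 7.37 and 11.6 FPKM in CTGF_KO, and the flip form (Gria4-202) was at 4.94, 7.44 and 5.08 FPKM in WT and 5.63, 7.88 and 8.29 FPKM in CTGF_KO. The flop sums were apart and the flip values overlapped. The flop share stood at 76.4%, 67.0% and 77.7% in the WT libraries and at 67.4%, 48.3% and 58.4% in CTGF_KO, where replicate 1 matched WT replicate 2 and the other 2 lay lower. Most of the flop sum was Gria4-204, at 14.2, 13.1 and 15.9 FPKM in WT and 10.1, 4.53 and 10.6 FPKM in CTGF_KO, without overlap (log2 difference −0.78, SE 0.30, unadjusted p = 0.0422). Without CTGF_KO replicate 2 that difference was −0.44. Gria4-203, a short form that ends before either exon, was at 5.25, 5.60 and 6.12 FPKM in WT and 4.16, 3.39 and 3.93 FPKM in CTGF_KO, without overlap (log2 difference −0.46, SE 0.14, unadjusted p = 0.0171).

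The flop shares of Gria1 and Gria3 spread too widely to separate the groups. Gria1 was at 61.7% ± 9.77 in WT and 62.9% ± 22.1 in CTGF_KO, and Gria3 at 48.7% ± 23.2 and 41.7% ± 22.6. For Gria3 the sum of the listed transcripts ranged from 0.322 to 1.96 times the gene's own FPKM between libraries, so its transcript values and its gene value do not describe the same amount. Shares are descriptions with no test, and the forms of a gene share most of their exons.

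**Figure D5:**
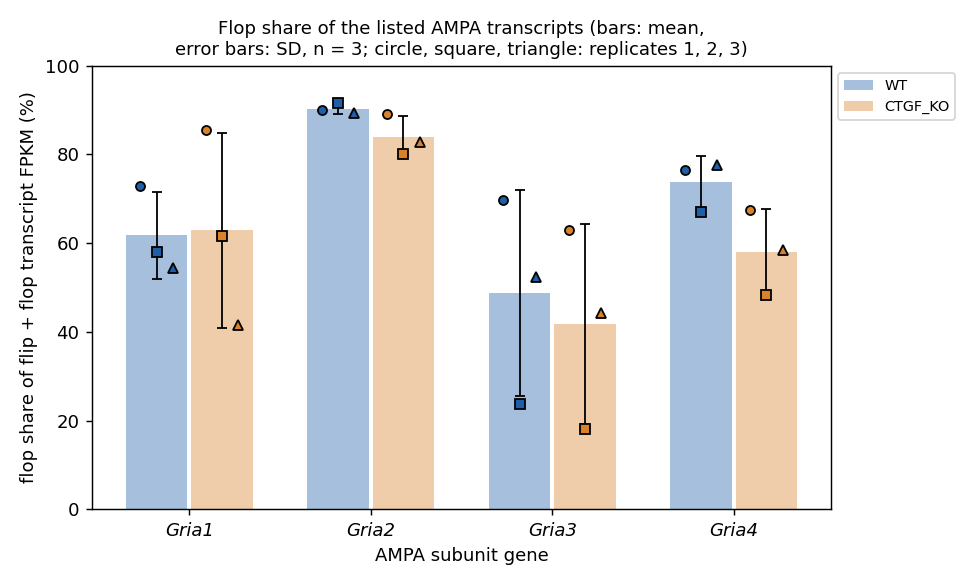
Flop share of the summed flip and flop transcript FPKM in percent (y axis) for each AMPA subunit gene (x axis) in WT and CTGF_KO (bars, mean; error bars, SD; points, the 3 libraries of each group). Gria2 is at 80.0% or above in every library, and the Gria1 and Gria3 points spread widely in both groups.

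Grin1 forms with the C1 exon made up 44.5% ± 2.10 of the Grin1 sum in WT and 47.7% ± 5.08 in CTGF_KO (SD, n = 3), with overlap. Single libraries stood apart in other genes. Gabbr1-201 was at 24.1 FPKM in CTGF_KO replicate 3 and between 2.68 and 7.11 FPKM elsewhere, while Gabbr1-203 was at 7.68 FPKM there and between 31.9 and 43.1 FPKM elsewhere. Grik5-201, the 1 listed transcript of Grik5, was at 27.4 FPKM in CTGF_KO replicate 2, where the gene was also highest, and between 5.01 and 6.51 FPKM in the other 5 libraries. That was 1.08 times the gene's value there and 0.273 to 0.348 times elsewhere.

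Genes whose products work with the receptors were read from lists by function, whose counts stand beside 55.1% of all genes lower and, at an unadjusted p under 0.05, 5.49% lower and 3.83% higher. In the highest bin of gene span, 75.3% of genes were lower and 12.2% were lower at such a p. The part of gene length in the list counts was not tested. Nothing here shows that a list differs from other genes. Of 20 auxiliary subunit genes of AMPA and kainate receptors 14 were lower (70.0%), 0 at an unadjusted p under 0.05, with a median of −0.05. Olfm1, which binds AMPA receptor complexes and was the most abundant, stood at 49.8, 55.6 and 53.8 FPKM in WT and at 47.1, 67.2 and 52.9 FPKM in CTGF_KO, with overlap. Neto1, an auxiliary subunit of kainate receptors, stood at 0.77, 0.86 and 0.751 FPKM in WT and at 0.625, 0.375 and 0.614 FPKM in CTGF_KO, without overlap (log2 difference −0.23, unadjusted p = 0.0649), and Olfm2 had 0.36 (unadjusted p = 0.0885), with CTGF_KO replicate 2 at 15.3 FPKM and the other libraries between 8.03 and 9.93 FPKM. Without CTGF_KO replicate 2 these were −0.15 and 0.14.

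Of 27 glutamate receptor scaffold genes 22 were lower (81.5%), 3 with an unadjusted p under 0.05 (11.1%), and 1 was higher with such a p. Dlg4, the scaffold PSD-95 and the most abundant, stood at 42.7, 46.2 and 52.0 FPKM in WT and at 48.6, 57.3 and 48.8 FPKM in CTGF_KO, with overlap (log2 difference 0.13, adjusted p = 0.636). Dlg2, which encodes PSD-93, stood at 15.2, 16.8 and 16.6 FPKM in WT and at 6.89, 6.22 and 14.8 FPKM in CTGF_KO. Replicates 1 and 2 of CTGF_KO were far below WT and replicate 3 just below it (−0.83, SE 0.27, unadjusted p = 0.0178, adjusted p = 0.533). Without replicate 3 of CTGF_KO the difference was −1.19 (adjusted p = 0.029), and without replicate 2 −0.63 (unadjusted p = 0.0609). Lin7a, a small adaptor protein, stood at 6.62, 6.74 and 8.55 FPKM in WT and at 5.6, 4.61 and 5.89 FPKM in CTGF_KO, without overlap (−0.38, unadjusted p = 0.0192). The third lower gene was Homer2, a scaffold of group I metabotropic receptors (−0.30, unadjusted p = 0.0331), and the higher one Camk2b, a kinase of the postsynaptic density, at 6.49, 6.92 and 5.38 FPKM in WT and at 5.91, 18.1 and 15.3 FPKM in CTGF_KO (0.84, unadjusted p = 0.0473). Both were named after their values were seen, and the groups of Camk2b overlapped through CTGF_KO replicate 1.

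Of 19 inhibitory scaffold and assembly genes 12 were lower (63.2%), 3 with an unadjusted p under 0.05 (15.8%), and all 3 encode KCTD proteins, auxiliary subunits of GABA-B receptors. Kctd12 stood at 12.9, 13.7 and 14.4 FPKM in WT and at 7.95, 9.45 and 11.3 FPKM in CTGF_KO. The groups were apart (log2 difference −0.48, SE 0.12, unadjusted p = 0.00574, adjusted p = 0.533). Kctd16 stood at 3.72, 3.97 and 4.97 FPKM in WT and at 1.94, 3.31 and 2.91 FPKM in CTGF_KO, also apart (−0.50, SE 0.17, unadjusted p = 0.0183). Kctd8, named after its values were seen, had a difference of −0.20 (unadjusted p = 0.0408). Map1b, the most abundant of the list, stood at 90.6, 98.1 and 92.0 FPKM in WT and at 85.9, 92.9 and 92.1 FPKM in CTGF_KO with a difference of −0.05, and Gphn, the gephyrin that Glrb anchors to, also −0.05 (adjusted p = 0.807).

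Of 14 tested genes of the mGluR6 cascade 8 were lower (57.1%), 1 at an unadjusted p under 0.05 (7.14%), with a median of −0.01. That gene was Rgs7bp, which encodes a membrane anchor of RGS7 proteins. It stood at 2.86, 2.9 and 3.44 FPKM in WT and at 2.23, 2.12 and 2.51 FPKM in CTGF_KO, without overlap (−0.31, unadjusted p = 0.0185). Elfn1, an adhesion partner of mGluR6 at rod synapses, stood at 14.6, 16.8 and 19.2 FPKM in WT and at 20.4, 26.1 and 17.4 FPKM in CTGF_KO (0.31, unadjusted p = 0.092; 0.16 without CTGF_KO replicate 2). Gnb3, the most abundant, stood at 117, 108 and 126 FPKM in WT and at 137, 129 and 121 FPKM in CTGF_KO (0.14, adjusted p = 0.589). Both overlapped between groups.

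Of 22 genes of transmitter synthesis, loading and uptake 14 were lower (63.6%), 5 with an unadjusted p under 0.05 (22.7%), and 2 were higher with such a p. Both of the higher genes act at photoreceptor and bipolar cell terminals. Slc17a7, the vesicular glutamate transporter there, stood at 22.3, 21.5 and 24.0 FPKM in WT and at 30.1, 31.9 and 28.4 FPKM in CTGF_KO, wholly apart (log2 difference 0.40, SE 0.08, unadjusted p = 0.00155, adjusted p = 0.533). Slc1a7, a glutamate transporter of the same terminals, stood at 28.2, 29.7 and 31.6 FPKM in WT and at 36.8, 39.9 and 34.4 FPKM in CTGF_KO, also apart (0.30, SE 0.09, unadjusted p = 0.0096). The part of the rod and cone lists, whose ranges are given above, was not tested. Glul, the glutamine synthetase of Mueller glia and the most abundant of the list, stood at 87.9, 83.8 and 79.4 FPKM in WT and at 77.2, 65.2 and 70.6 FPKM in CTGF_KO, without overlap (−0.24, unadjusted p = 0.032). The other 4 lower genes were named after their values were seen. Slc17a6, another vesicular glutamate transporter of retinal neurons, was 1 of them (−0.39, unadjusted p = 0.0185). The rest were Gad1 (−0.21, unadjusted p = 0.0499) and Gad2 (−0.30, unadjusted p = 0.0335), which make GABA, and Abat (−0.19, unadjusted p = 0.029), which breaks it down.

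Of 12 genes that set the chloride gradient 11 were lower (91.7%), 0 at an unadjusted p under 0.05, with a median of −0.09. Slc12a2, the chloride importer NKCC1, stood at 9.78, 9.42 and 9.8 FPKM in WT and at 8.84, 6.24 and 8.47 FPKM in CTGF_KO (−0.28, unadjusted p = 0.0602; −0.14 without CTGF_KO replicate 2). Wnk1, a kinase that regulates it, stood at 9.86, 10.7 and 9.64 FPKM in WT and at 9.26, 8.1 and 9.09 FPKM in CTGF_KO (−0.17, unadjusted p = 0.0876). Neither pair of groups overlapped. The log2 ratio of Slc12a5, the exporter KCC2 whose rise makes GABA inhibitory, to Slc12a2 stood at 0.61, 0.74 and 0.72 in the WT libraries and at 0.66, 1.52 and 0.78 in CTGF_KO. CTGF_KO replicate 2 stood apart, and without it the difference of 0.30 between group means was 0.03.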

How the data were processed

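Polyadenylated RNA of 6 retina libraries (3 WT, 3 CTGF_KO) was read with a strand-keeping kit, per the labels' protocols. Reads were trimmed with cutadapt, aligned to GRCm38 with HISAT2 and quantified with StringTie, per the submitters' processing notes, and FPKM per gene and transcript came from Ballgown, per the series design. The deposited FPKM tables were used as given. The log2 fold changes of the authors' deposited lists were used only to look up members. No count or depth is given, so no counting error is available.

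log2(FPKM + 1) was tested with limma 3.58.1 in R 4.3.3 (moderated variance with a mean trend, genes with a mean of at least 0.5 FPKM, Benjamini-Hochberg adjustment over all features tested). Class sums and ratios have no test. Named were, per class, the most abundant gene and that with the smallest p, and every member with an unadjusted p under 0.05; per companion list, the most abundant and the 2 with the smallest p; and the 10 transcripts with the smallest p. Other members are given by values. The test was checked on simulated data with planted differences larger than that of any member. That check does not show how well differences as small as the members' are detected. Gene spans and exon sequences came from GENCODE M21. Members and lists were chosen with earlier results of these data known. Some members and companion genes are counted but not reported by name here.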

Additional observations from a re-analysis of the deposited data

How the results depend on the processing

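Alternatives were another pseudocount (0.1), no filter or a mean of at least 1 FPKM, equal FPKM totals, median-of-ratios scaling, limma without a trend or without moderation, a replicate block, each library left out in turn, and the removal of gene length trends, the last chosen after seeing the data. Under every one, 0 receptor genes passed the adjusted threshold, as did 0 of their transcripts where run (without the length trends), and 0 receptor genes were higher at an unadjusted p under 0.05. The count lower at such a p (10) was 3 with the gene span trend removed, 6 with the exon length trend removed, 15 with equal FPKM totals, 7 with median of ratios, 8 without moderation and 5 to 10 with a library left out. Of all 12915 genes tested, 709 were lower at such a p. That number was 456 with the gene span trend removed, 473 with the exon length trend removed and 1294 with equal FPKM totals. It was 541 with median of ratios, 661 without moderation and 348 to 876 with a library left out. The median log2 difference of the receptor genes (−0.17) was −0.06 with the span trend removed. Over all genes, 6 passed the adjusted threshold, 1 without moderation, 2 with the replicate block and 2 to 9 with a library left out, and 1204 had an unadjusted p under 0.05, 598 to 1428 with a library left out. Member transcripts with such a p (8) were 3 to 10 with a library left out. Same-numbered libraries had residual correlations of 0.0129, 0.171 and −0.156, and differently numbered ones −0.305 to 0.371. The labels do not say whether the numbers pair libraries, and with 3 libraries a group these correlations cannot settle it. With the replicate block 9 receptor genes were lower at an unadjusted p under 0.05, as were 682 of all 12915 genes tested. The sign changed for Gabrr3 (0.01) to −0.06 with equal FPKM totals, −0.03 without CTGF_KO replicate 1, −0.15 without CTGF_KO replicate 3 and −0.02 without WT replicate 1, within a leave-one-out range of −0.15 to 0.21. It changed for Grid1 (−0.07) to 0.09 with the span trend removed and 0.03 without CTGF_KO replicate 1 (range −0.16 to 0.03), and for Gabbr2 (−0.14) to 0.03 without CTGF_KO replicate 1 (range −0.32 to 0.03). Among companion genes, it changed for Olfm1 (0.06) to −0.02 with equal FPKM totals and −0.08 without CTGF_KO replicate 2 (range −0.08 to 0.17), and for Map1b (−0.05) to 0.02 with the span trend and 0.07 with the exon length trend removed. The other genes and transcripts recomputed, which are those chosen by the naming rule, kept their sign; companion genes and receptor genes outside it were not recomputed one by one. The cause of these shifts was not tested. With 3 libraries a group and no counts, the spread between libraries is the one measure of error.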
